A study of Mus musculus with 34 samples.

Results

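The genes described here encode the collagens, laminins, other matrix proteins and integrins, as measured in 3 lines of mouse colorectal tumour cells named NaJa-D, NaJa-F and NaJa-G. They were chosen by symbol: the collagen chains (Col), laminin chains (Lama, Lamb, Lamc), integrin subunits (Itga, Itgb) and fibulins (Fbln), together with Fn1, Nid1, Nid2, Sparc, Tnc, Thbs1, Thbs2, Postn, Vcan, Bgn, Dcn, Hspg2, Agrn, Fbn1 and Eln. The mouse annotation holds 99 such genes, of which 70 have a row in the deposited count table of 14107 genes. The rule used no measured level, but it was set with earlier results of these data known. Every gene in that table exceeded 1 CPM (counts scaled to the library total) in at least 2 libraries. Genes below that limit thus had no row, so the 70 depend on measured level. Of the 70, 10 passed it in 1 line only. These were Col6a5 and Eln in NaJa-D, and Col15a1, Col1a2, Col5a3, Itgb8, Lama4, Lamc3, Nid2 and Postn in NaJa-G. Counts that compare lines or treatments were partly set by that limit. The 29 without a row include Itga1, Itga4, Lama1, Lama2, Col2a1, Col14a1, Col17a1 and Fbln1, which were not analysed here.

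The lines grew out of peritoneal lavages of 3 C57BL/6N recipients into whose colon organoids of a single donor line had been transplanted. All share VillinCreERT2, a Cre recombinase driven in intestinal epithelium and switched on by 4-hydroxytamoxifen, and the recombined BrafV600E/+, Trp53R172H and APCdel alleles. According to the study, the wild-type Trp53 allele and host DNA were lost during passaging. Each line is 1 isolate, so a difference between lines compares 3 isolates. Cells in DMEM with 10% serum received 0.5 µM encorafenib, an inhibitor of BRAF V600E, or its solvent DMSO, and were harvested for RNA on day 1 or day 5. The 12 groups of line, treatment and day held 3 libraries each, except for 2 in NaJa-F with encorafenib at day 5 and 2 in NaJa-G with DMSO at day 5. The labels do not say that replicates were separate cultures, so p-values measure the spread between these libraries, which may be technical.

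The 34 libraries held 46007050 to 80121299 counts each, and 1.68% to 4.15% of them fell on the 70 genes. The labels of NaJa-D DMSO day 1 replicate 3 disagree, its title naming NaJa-D and its cell line entry NaJa-G, and it was kept under its title. Its level of Lama3, 1192 CPM, lay near those of its group, 1042 and 1047, and far from the 65.6 to 71.4 of NaJa-G DMSO day 1. Counts that rest on it are also given without it. Of the named NaJa-D day 1 encorafenib calls, those of Col1a1, Col6a1, Dcn, Itgb1 and Itgb3 were lost without it. Line differences against NaJa-D lost without it were those of Itgb1 and Itgb8 (NaJa-F) and Col4a2 (NaJa-G), and the response difference of Vcan between NaJa-F and NaJa-D was lost too. The other named calls kept their side of the threshold and their direction without it. Colon epithelium markers had summed levels of 2613 to 9120 CPM in every library, with 10 of 11 in the table (Cdx1 absent). The study describes NaJa-D as epithelial-like, NaJa-G as mesenchymal-like and NaJa-F as intermediate. In DMSO, NaJa-G minus NaJa-D gave log2 differences of -3.78 for Epcam, -3.73 for Vil1 and -1.37 for Cdh1, while Krt18 (0.00346) and Cdh17 (0.048) had no call. Mesenchymal markers summed to 171 to 232 CPM in NaJa-D and 2464 to 3292 CPM in NaJa-G in DMSO. Of 6 mesothelial markers, 4 were present, at a summed 801 to 7091 CPM that differed with treatment as given beside the encorafenib counts, with Upk1b and Wt1 absent. Leukocyte markers summed to 3.64 to 10.2 CPM with 2 of 8 in the table, the defining markers Ptprc, Cd3e, Adgre1, Itgam and Lyz2 being among those absent, and endothelial markers to 0.769 to 3.17 CPM with 2 of 6, Pecam1, Cdh5, Tek and Emcn being absent.

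Epithelial cells rest on a basement membrane, a sheet in which laminin trimers of an alpha, a beta and a gamma chain and a network of type IV collagen are tied together by nidogens and the heparan sulphate proteoglycans perlecan and agrin. Below it lies interstitial matrix of fibrillar collagens, elastic fibres, fibronectin and proteoglycans, made mostly by fibroblasts in the normal gut. Integrins are alpha-beta dimers in the cell membrane that bind these proteins and link them to the cytoskeleton or, for integrin alpha6 beta4, to keratin filaments in hemidesmosomes. Matricellular proteins such as thrombospondin, SPARC and tenascin-C modulate adhesion more than they bear load.

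Several of these genes lie in arrangements that matter below, and their DNA is shown for that reason. Col4a4 and Col4a3, which encode chains of the alpha3.alpha4.alpha5 type IV network, start head to head, Col4a4 (ENSMUSG00000067158) at chr1:82448423-82586849 on the minus strand and Col4a3 (ENSMUSG00000079465) at chr1:82586921-82722059 on the plus strand of GRCm38. Only 71 bases separate them. Col4a5 (ENSMUSG00000031274), the third chain of that network, is on another chromosome, chrX:141475385-141689234. Col4a1 and Col4a2, chains of the common alpha1.alpha2 network, overlap by 22 bases of their first exons on opposite strands. Lamb1 (ENSMUSG00000002900, chr12:31265234-31329644) and Lamb2 (ENSMUSG00000052911, chr9:108479736-108490530) encode alternative beta chains that moved in opposite directions. The stretches, from RefSeq promoters of GRCm38.p6, follow 5′ to 3′ on the plus strand, with motif matches in capitals.
Between Col4a4 and Col4a3, chr1:82586850-82586920: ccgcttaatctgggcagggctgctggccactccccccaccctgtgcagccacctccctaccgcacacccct
Shared by Col4a1 and Col4a2, chr8:11312805-11312826: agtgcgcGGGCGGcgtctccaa
Upstream of Col4a5, chrX:141475169-141475384: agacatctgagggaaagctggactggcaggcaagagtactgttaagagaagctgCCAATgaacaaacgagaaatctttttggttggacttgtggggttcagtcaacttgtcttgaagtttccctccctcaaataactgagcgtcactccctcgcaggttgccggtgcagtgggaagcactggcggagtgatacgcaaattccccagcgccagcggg
Upstream of Lamb1, chr12:31265043-31265233: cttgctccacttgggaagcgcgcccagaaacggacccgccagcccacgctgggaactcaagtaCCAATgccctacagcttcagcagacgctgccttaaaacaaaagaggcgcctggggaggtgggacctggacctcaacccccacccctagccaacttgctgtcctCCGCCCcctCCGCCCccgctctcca
Upstream of Lamb2, chr9:108479612-108479735: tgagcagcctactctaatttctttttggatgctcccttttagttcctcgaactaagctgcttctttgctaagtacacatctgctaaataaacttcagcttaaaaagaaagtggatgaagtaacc

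The motifs searched, on both strands, were TGANTCA (AP-1), GGGCGG (GC box), CCAAT and TATAAA; none of them overlapped another. The 71 bases between Col4a4 and Col4a3 are 69.0% G or C and hold none of the 4. Among 32851 promoter windows, 1.86% held TGANTCA, 20.7% GGGCGG, 13.3% CCAAT and 4.41% TATAAA in a stretch of that length. The Lamb1 stretch, 63.9% G or C, holds 2 GC boxes on the reverse strand and 1 CCAAT, motifs found in 30.7% and 28.5% of stretches of its length. The Lamb2 stretch, 37.9% G or C, holds none, where 26.8% of stretches of its length held GGGCGG and 21.7% CCAAT. The Col4a5 stretch has 1 CCAAT (30.8% of stretches of its length) and the Col4a1 and Col4a2 overlap 1 GC box (7.19%). The shares come from stretches that end at the same base in every window. The Lamb1, Lamb2 and Col4a5 stretches began at the outermost base of their windows, and the Col4a1 and Col4a2 overlap is exonic. The shares thus match the stretches in length but not always in position. A match is a description of letters, not a binding site.

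The first question was how encorafenib changed these genes in each line and day. A gene was called higher or lower when its adjusted p in limma's test on log2 CPM was below 0.01, with p-values adjusted by Benjamini-Hochberg over the 14107 genes. In NaJa-D, 28 of the 70 rose and 17 fell at day 1 (40.0% and 24.3%), where 23.7% and 21.2% of all genes did. At day 5, 22 rose and 13 fell, against 18.3% and 14.7% of all genes. Without the replicate whose line labels differ, the NaJa-D day 1 counts were 21 and 15, and without NaJa-D DMSO day 1 replicate 1 they were 18 and 17. In NaJa-F, 23 rose and 7 fell at day 1 (all genes, 17.5% and 12%), and 18 rose and 4 fell at day 5 (all genes, 9.7% and 8.5%). NaJa-G had the largest counts of higher genes, 46 with 7 lower at day 1 (65.7% and 10.0% of the 70; all genes, 35.3% and 28.7%) and 53 with 6 lower at day 5 (75.7% and 8.57%; all genes, 28.5% and 24.7%). At days 1 and 5 the median log2 fold change of the 70 genes was 0.42 and 0.21 (NaJa-D), 0.16 and 0.23 (NaJa-F) and 0.58 and 1.18 (NaJa-G), while that of all genes lay between -0.02 and 0.04. Counts by role below stand against the shares of all genes given for the same comparison. Col11a1, Col5a3, Dcn, Eln, Itga11 and Lama4 exceeded 1 CPM in encorafenib libraries only. Such genes have a row because of the drug groups, so the counts of rising genes were partly set by that limit.

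Markers of mesothelium, the lining of the peritoneum from which the lines were taken, moved with encorafenib beside these counts. Their summed level was 3290 to 3501 CPM in DMSO and 6879 to 7091 CPM with the drug in NaJa-D at day 1, and 801 to 949 CPM and 2183 to 2450 CPM in NaJa-G at day 5. The drug libraries were above the solvent libraries in every line and day. Msln, Upk3b and Krt7 rose in 6 of 6 comparisons, Upk3b by 4.37 and 5.12 in NaJa-G, where its DMSO libraries lay at or below 0.184 CPM, and Lrrn4 in 2. Wt1 and Upk1b had no row, and Krt7 is also expressed by epithelia. In bulk RNA, more cells of a type and more RNA per cell cannot be told apart, and the part of these markers in the matrix results was not tested.

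**Figure D1:**
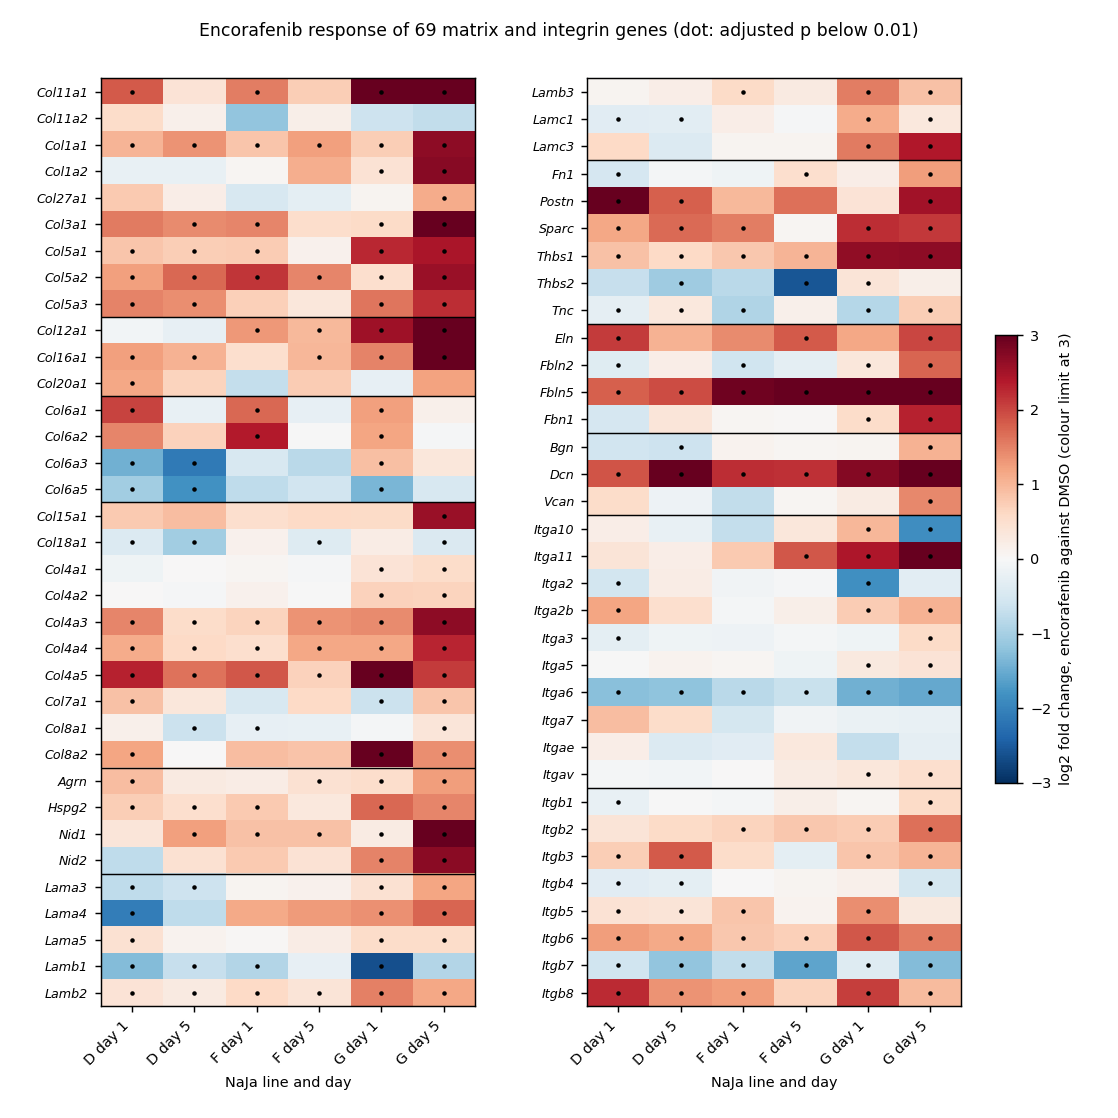
Log2 fold change of encorafenib over DMSO for 69 of the 70 genes (rows, by role) in the 6 comparisons of line and day (columns), with a dot where the adjusted p was below 0.01 and the colour scale cut at 3 in each direction. Red dominates in the NaJa-G columns, where 46 and 53 of the 70 were higher, and the rows of Itga6 and Itgb7 are blue in all 6 columns.

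Across the 6 comparisons, 10 genes rose each time and 2 fell each time. The 10 were Col1a1, Col4a3, Col4a4, Col4a5, Col5a2, Dcn, Fbln5, Itgb6, Lamb2 and Thbs1, and the 2 were Itga6 and Itgb7. They make up 14.3% and 2.86% of the 70, where 5.08% and 3.07% of all genes rose or fell in all 6. Of the others, 15 (21.4% of the 70) rose in some comparisons and fell in others, where 6.34% of all genes did. Another 3 (Col11a2, Itga7 and Itgae) passed in none. Leaving out a single library ended a call of Col1a1, Col5a2, Dcn, Lamb2 or Col4a3 in at least 1 comparison, as given beside those genes. Lamb2 lies outside the rule by which genes were named and was chosen after its values were seen. Dcn exceeded 1 CPM in encorafenib libraries only, so its place among the 10 was partly set by that limit.

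Type IV collagen. The chains of the alpha3.alpha4.alpha5 network rose in every comparison, while Col4a1 and Col4a2, the far more abundant common chains, rose in NaJa-G only and had no call in the other lines. Col4a5 in NaJa-G stood at 13.6, 14.3 and 15.2 CPM in DMSO at day 1 and at 119, 131 and 120 CPM with encorafenib. At day 5 it was at 46.8 and 51.6 CPM in DMSO and at 205, 221 and 204 CPM with the drug. The drug and solvent libraries did not overlap on either day. The log2 difference of Col4a5 was 3.10 ± 0.08 (SE) at day 1 (adjusted p = 2.16e-23) and 2.09 ± 0.08 at day 5. NaJa-D gave 2.30 ± 0.09 and 1.64 ± 0.07, and NaJa-F 1.87 ± 0.10 and 0.70 ± 0.09, the last from 14.2, 14.8 and 15 CPM in DMSO to 25.1 and 22.7 CPM.

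Col4a3 and Col4a4 rose together in each comparison. At days 1 and 5 the log2 difference of Col4a3 was 1.46 ± 0.13 and 0.55 ± 0.13 for NaJa-D, 0.68 ± 0.13 and 1.35 ± 0.14 for NaJa-F, and 1.42 ± 0.17 and 2.68 ± 0.19 for NaJa-G. Those of Col4a4 were 1.11 ± 0.09 and 0.59 ± 0.08, 0.50 ± 0.09 and 1.17 ± 0.09, and 1.15 ± 0.12 and 2.28 ± 0.14. In NaJa-G at day 5 Col4a3 went from 9.30 and 8.98 CPM to 54.6, 63.2 and 58.4 CPM, and Col4a4 from 7.31 and 6.83 CPM to 32.1, 36.6 and 34.3 CPM. The smallest change of Col4a3, in NaJa-D at day 5, went from 73.7, 67.3 and 61.8 CPM to 113, 93.3 and 91.9 CPM and lost its call, at 0.46, when replicate 1 of NaJa-D encorafenib day 5 was left out. Per exonic kilobase, the mean ratio of Col4a3 to Col4a4 stayed between 0.901 and 1.86 over the 12 groups. Strand use in counting is not stated in the sources used here, but the 2 genes do not overlap.

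Col4a1 in DMSO lay between 404 and 876 CPM over all libraries. Its log2 difference was 0.40 ± 0.08 at day 1 and 0.55 ± 0.09 at day 5 in NaJa-G, and between -0.14 and 0.05 in the other lines with no call. Col4a2 gave 0.70 ± 0.09 and 0.67 ± 0.10 in NaJa-G and between -0.03 and 0.12 elsewhere. Its level per exonic kilobase was 0.966 to 1.12 times that of Col4a1 in NaJa-D and NaJa-F and 1.34 to 1.65 times in NaJa-G. Col18a1, whose product is cut to endostatin, fell in NaJa-D at both days (-0.40 ± 0.09 and -1.04 ± 0.09), and at day 5 also in NaJa-F (-0.38 ± 0.10) and NaJa-G (-0.43 ± 0.11). Of the 10 basement membrane and network collagens, 5 rose and 1 fell in NaJa-D at day 1, 3 and 2 at day 5, 3 and 1 in NaJa-F on each day, 6 and 1 in NaJa-G at day 1 and 9 and 1 at day 5.

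Laminins. The beta chains moved in opposite directions: Lamb1 fell in 5 of the 6 comparisons and Lamb2 rose in 6 of 6. Lamb1 in NaJa-G went from 318, 287 and 295 CPM to 47.2, 47.5 and 49.3 CPM at day 1, a log2 difference of -2.64 ± 0.07 (adjusted p = 2.43e-22), and from 238 and 226 CPM to 125, 131 and 124 CPM at day 5 (-0.87 ± 0.08). In NaJa-D it fell from 299, 308 and 341 CPM to 112, 122 and 150 CPM at day 1 (-1.31 ± 0.07) and by 0.69 ± 0.07 at day 5. In NaJa-F it fell by 0.87 ± 0.07 at day 1, and at day 5 gave -0.25 ± 0.08 (adjusted p = 0.0187). All 6 comparisons kept the drug libraries below the solvent libraries.

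Lamb2 rose in NaJa-G from 118, 129 and 131 CPM to 345, 380 and 356 CPM at day 1 (1.52 ± 0.08, adjusted p = 8.13e-16) and from 184 and 235 CPM to 445, 510 and 451 CPM at day 5 (1.17 ± 0.09). Its changes were smaller in NaJa-D, 0.41 ± 0.08 and 0.28 ± 0.08, and in NaJa-F, 0.60 ± 0.08 and 0.38 ± 0.09, and the day 5 calls were not stable, falling to 0.21 (adjusted p = 0.0688) without NaJa-D DMSO day 5 replicate 3 and to 0.25 (adjusted p = 0.114) without NaJa-F encorafenib day 5 replicate 2. Per exonic kilobase, the ratio of Lamb2 to Lamb1 in NaJa-G went from 0.686 to 12.2 at day 1 and from 1.48 to 6.03 at day 5. It went from 2.09 to 6.92 and from 4.16 to 8.13 in NaJa-D, and from 0.902 to 2.5 and from 1.29 to 2.01 in NaJa-F. Lamb1 thus exceeded Lamb2 per length in DMSO in NaJa-F and NaJa-G at day 1 and in no encorafenib group.

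Lama3 and Lamb3 encode chains of laminin-332, the anchor of hemidesmosomes, and were called together in NaJa-G only. Lama3 fell in NaJa-D, from 1042, 1047 and 1192 CPM to 582, 639 and 725 CPM at day 1 (-0.76 ± 0.08), and rose in NaJa-G, from 41.4 and 37.2 CPM to 86.5, 91.9 and 89.9 CPM at day 5 (1.19 ± 0.08). Responses of Lama3 in NaJa-G and NaJa-D differed by 1.21 ± 0.10 at day 1 and 1.81 ± 0.11 at day 5 (adjusted p = 3.47e-13), on the log2 scale. Lamb3 had no call in NaJa-D and rose in NaJa-G by 1.53 ± 0.08 and 0.88 ± 0.09.

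Lama5 and Lamc1 pair with Lamb1 or Lamb2 in laminin-511 and laminin-521. Lama5 rose in NaJa-G by 0.56 ± 0.13 at day 1 and 0.56 ± 0.15 at day 5. Lamc1 rose in NaJa-G by 1.12 ± 0.08 and 0.32 ± 0.09 and fell in NaJa-D by 0.33 ± 0.08 and 0.31 ± 0.08. Over the 9 laminin chains, 2 rose and 5 fell in NaJa-D at day 1, and 1 rose and 4 fell at day 5. NaJa-F had 2 and 2 at day 1, then 1 and 0. NaJa-G had 7 rising at day 1 and 8 at day 5, with Lamb1 the 1 chain that fell on each day.

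**Figure D2:**
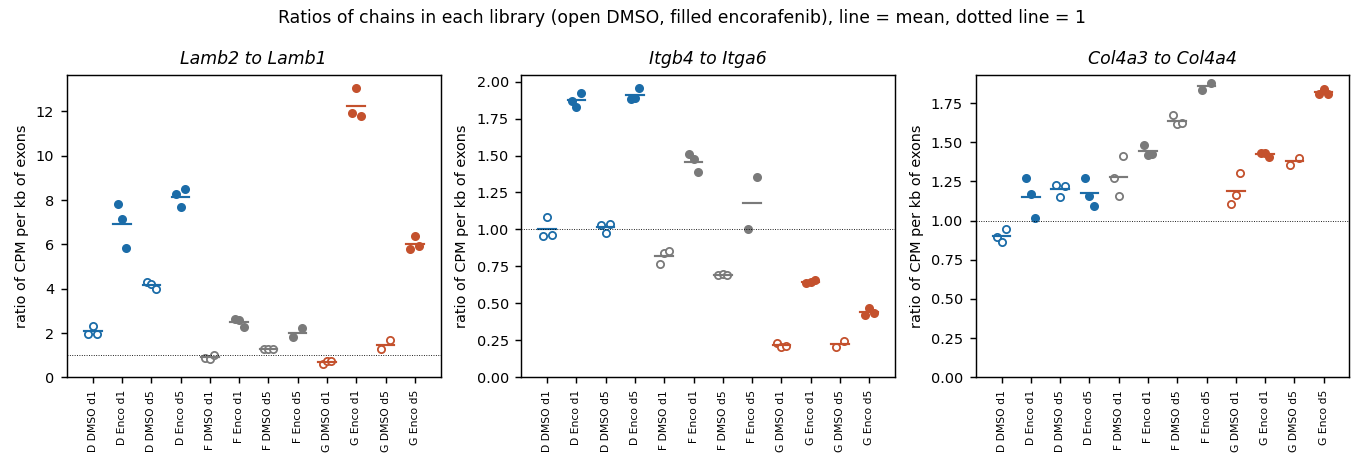
Ratio of Lamb2 to Lamb1, Itgb4 to Itga6 and Col4a3 to Col4a4, each per exonic kilobase, in every library of the 12 groups on linear axes from 0 (open points DMSO, filled points encorafenib, lines group means). Lamb2 to Lamb1 is higher with encorafenib in each line and day, most in NaJa-G at day 1 (0.686 to 12.2), while Col4a3 to Col4a4 group means stay between 0.901 and 1.86.

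Among the proteins that link laminin to collagen IV, Hspg2 (perlecan) rose in 5 of 6 comparisons and Nid1 (nidogen-1) in 5 of 6. Hspg2 went from 666, 555 and 543 CPM to 1963, 1981 and 1861 CPM in NaJa-G at day 1 (1.72 ± 0.12) and rose by 1.48 ± 0.14 at day 5. In NaJa-D it rose by 0.74 ± 0.12 and 0.50 ± 0.12, the latter giving 0.37 (adjusted p = 0.0156) without NaJa-D DMSO day 5 replicate 3. Agrn (agrin) rose by 0.92 ± 0.11 in NaJa-D at day 1 and by 1.26 ± 0.11 in NaJa-G at day 5. All 4 linkers rose in NaJa-G on both days, and 2 of 4 in each other comparison.

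Fibrillar collagens. Of the 9 in the table, 7 rose in NaJa-G at day 1 and 8 at day 5, 5 in NaJa-D on each day, 5 in NaJa-F at day 1 and 2 at day 5. None fell in any comparison. Col11a1 and Col5a3 exceeded 1 CPM in encorafenib libraries only, so the absence of falls was partly set by that limit. Type I collagen, the main protein of interstitial fibres, is a trimer of Col1a1 and Col1a2 chains. Col1a1 (ENSMUSG00000001506, chr11:94936224-94953042) rose in 6 of 6 comparisons from levels that differed greatly between lines. In NaJa-D at day 1 it went from 1.09, 1.17 and 0.946 CPM to 2.12, 2.14 and 2.31 CPM (1.02 ± 0.30, adjusted p = 0.00469), a call lost in 5 of 6 removals of a single library. In NaJa-G at day 5 it went from 9.92 and 12.1 CPM to 66.2, 78.4 and 68.7 CPM (2.68 ± 0.12, adjusted p = 2.29e-17). NaJa-F gave 0.83 ± 0.23 and 1.24 ± 0.25, the former lost in 4 of 6 removals of a single library.

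Col1a2 stayed under 0.5 CPM in every NaJa-D and NaJa-F library and had no call there. In NaJa-G it rose by 0.44 ± 0.09 at day 1 and by 2.73 ± 0.16 at day 5, from 3.31 and 3.74 CPM to 24.4, 25.3 and 21.2 CPM. The ratio of Col1a1 to Col1a2 per exonic kilobase was 5.01 to 6.19 in the 4 NaJa-G groups. Col3a1, which forms homotrimers in reticular fibres, rose by 3.17 ± 0.19 in NaJa-G at day 5, from 1.07 and 1.16 CPM to 9.70, 11.5 and 9.34 CPM. It stayed at or below 1.06 CPM in NaJa-D and NaJa-F, where 2 of its 4 comparisons passed.

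Col5a1 and Col5a2, chains of type V collagen that nucleates type I fibrils, rose in 5 and 6 comparisons. Col5a1 in NaJa-G went from 49.7, 45.8 and 47.4 CPM to 221, 235 and 226 CPM at day 1 (2.25 ± 0.08) and from 51.7 and 56.0 CPM to 276, 321 and 291 CPM at day 5 (2.46 ± 0.08). Its partner Col5a2 was a low gene in NaJa-D and NaJa-F, below 1.5 CPM in every library. Col5a2 rose there by 1.24 ± 0.31 and 1.71 ± 0.32 in NaJa-D and by 2.14 ± 0.36 and 1.47 ± 0.34 in NaJa-F. The NaJa-D day 1 value of Col5a2 was 0.76 (adjusted p = 0.0382) without NaJa-D DMSO day 1 replicate 1, and the NaJa-F day 5 call was also lost without 1 library. In NaJa-G Col5a2 gave 0.51 ± 0.10 at day 1 and 2.59 ± 0.20 at day 5.

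Col11a1 and Itga11, both chosen after their values were seen, had the largest changes among fibrillar collagens and integrins in NaJa-G. Both exceeded 1 CPM in encorafenib libraries only and so have a row because of the drug groups. Col11a1, a chain of the cartilage-type fibril also made by activated fibroblasts, went from 0.288, 0.429 and 0.416 CPM to 8.67, 7.68 and 8.78 CPM at day 1 (4.47 ± 0.22) and from 0.368 and 0.471 CPM to 25.3, 28.1 and 28.3 CPM at day 5 (5.99 ± 0.25). It stayed at or below 1.63 CPM in the other lines. Itga11, the alpha subunit of a fibrillar collagen receptor, went from 0.301 and 0.333 CPM to 10.7, 12.2 and 11.1 CPM at day 5 (5.12 ± 0.30).

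Fibril-associated and beaded filament collagens. Col12a1, which decorates type I fibrils, responded differently in the 3 lines. It was at 63.1, 74.2 and 62.8 CPM in NaJa-D DMSO day 1 and at 59.9, 61.9 and 66.6 CPM with encorafenib, with no call on either day. In NaJa-G it went from 17.3, 19.1 and 17.6 CPM to 110, 109 and 98.4 CPM at day 1 (2.55 ± 0.11) and from 30.9 and 27.2 CPM to 246, 261 and 247 CPM at day 5 (3.12 ± 0.12). NaJa-F rose by 1.30 ± 0.15 and 0.96 ± 0.13. NaJa-G, the line below NaJa-D in solvent, was thus above it with the drug. Col16a1 rose in 5 of 6, by up to 3.05 ± 0.18 in NaJa-G at day 5.

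Type VI collagen forms beaded filaments from Col6a1, Col6a2 and Col6a3. Col6a1 rose at day 1 in all lines, by 2.02 ± 0.49 (NaJa-D), 1.72 ± 0.12 (NaJa-F) and 1.23 ± 0.09 (NaJa-G), and had no call at day 5. The NaJa-D value lay under 0.8 CPM and was 1.37 (adjusted p = 0.0217) without NaJa-D DMSO day 1 replicate 3. Col6a2 rose at day 1 in NaJa-F (2.37 ± 0.27) and NaJa-G (1.19 ± 0.15). Col6a3 fell in NaJa-D by 1.43 ± 0.30 and 2.12 ± 0.44 and rose in NaJa-G at day 1 by 0.91 ± 0.09, from 6.39, 6.60 and 6.72 CPM to 11.3, 13.7 and 12 CPM. No beaded filament collagen had a call in NaJa-F or NaJa-G at day 5.

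Elastic fibre genes and proteoglycans. Fbln5 (fibulin-5, ENSMUSG00000021186), which guides elastin onto microfibrils, rose in 6 of 6 comparisons. In NaJa-G it went from 1.27, 1.04 and 1.2 CPM to 12.3, 10.7 and 11.8 CPM at day 1 (3.30 ± 0.12) and from 0.385 and 0.443 CPM to 20.1, 20.7 and 18.7 CPM at day 5 (5.55 ± 0.21, adjusted p = 5.01e-19). NaJa-D gave 1.80 ± 0.16 and 1.95 ± 0.12. NaJa-F gave 2.92 ± 0.30 and 2.99 ± 0.31, with every library below 1 CPM. Fbln2 rose by 1.73 ± 0.08 in NaJa-G at day 5, from 373 and 406 CPM to 1316, 1369 and 1200 CPM, and fell at day 1 by 0.37 ± 0.08 in NaJa-D and 0.60 ± 0.09 in NaJa-F. Fbn1 (fibrillin-1) rose in NaJa-G by 0.55 ± 0.12 and 2.32 ± 0.20. Eln (elastin) stayed at or below 1.67 CPM in every group and rose in 3 comparisons, NaJa-D at day 1 and NaJa-F and NaJa-G at day 5. Its call in NaJa-G at day 5 was lost without NaJa-G DMSO day 5 replicate 3 (1.53, adjusted p = 0.0575).

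Dcn (decorin), a small leucine-rich proteoglycan that binds collagen fibrils, was near the detection limit in DMSO, at or below 0.36 CPM in every library. It reached 12, 12.9 and 12.9 CPM with encorafenib in NaJa-G at day 5 (5.83 ± 0.40) and 4.30, 3.40 and 4.04 CPM in NaJa-D at day 5 (3.84 ± 0.34). In the other 4 comparisons Dcn stayed at or below 1.2 CPM with the drug, with log2 differences of 1.88 to 2.76. The NaJa-D day 1 call was lost without any of 3 libraries, among them DMSO replicate 3 (1.61, adjusted p = 0.0216), and the NaJa-F day 5 value was 1.80 (adjusted p = 0.0132) without NaJa-F encorafenib day 5 replicate 1. Bgn (biglycan) and Vcan (versican) rose in NaJa-G at day 5, by 1.05 ± 0.09 and 1.45 ± 0.21, and Bgn fell in NaJa-D at day 5 by 0.63 ± 0.17.

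Adhesive and matricellular glycoproteins. Fn1 (fibronectin) ranked between 1st and 10th of all genes by count and took 0.438% to 1.30% of each library. In NaJa-G it was at 5171 and 5134 CPM in DMSO day 5 and at 12110, 12814 and 11987 CPM with encorafenib (1.25 ± 0.08, adjusted p = 2.88e-13). Fn1 fell in NaJa-D at day 1, from 13615, 13543 and 14884 CPM to 9033, 9446 and 11191 CPM (-0.51 ± 0.08), and rose in NaJa-F at day 5 (0.51 ± 0.09). The other 3 comparisons of Fn1 had no call.

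Thbs1 (thrombospondin-1, ENSMUSG00000040152, chr2:118111876-118127133), which binds cells and activates latent TGF-beta, rose in 6 of 6. In NaJa-G it went from 648, 643 and 604 CPM to 4206, 3928 and 3863 CPM at day 1 (2.66 ± 0.07, adjusted p = 6.71e-23) and from 1182 and 1136 CPM to 7264, 7768 and 7324 CPM at day 5 (2.68 ± 0.08). NaJa-D rose from 4253, 4533 and 4501 CPM to 7702, 7750 and 8843 CPM at day 1 (0.87 ± 0.07) and by 0.61 ± 0.07 at day 5. NaJa-F gave 0.82 ± 0.07 and 1.01 ± 0.08. With encorafenib at day 5, the NaJa-G and NaJa-D libraries of Thbs1 overlapped, although in DMSO those of NaJa-D were all above those of NaJa-G.

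Sparc (osteonectin), a collagen-binding matricellular protein, rose in 5 of 6 comparisons. NaJa-G went from 82.8, 74.5 and 72.1 CPM to 362, 331 and 371 CPM at day 1 (2.22 ± 0.07) and from 83.3 and 90.5 CPM to 366, 394 and 381 CPM at day 5 (2.13 ± 0.08). In NaJa-F it rose by 1.54 ± 0.12 at day 1 and gave 0.05 ± 0.12 at day 5, where the solvent libraries were at 8.50, 10.9 and 8.38 CPM and the drug libraries at 9.16 and 9.87 CPM. Tnc (tenascin-C) was lower at day 1 in all lines, by 0.26 ± 0.06 (NaJa-D), 0.90 ± 0.07 (NaJa-F) and 0.86 ± 0.07 (NaJa-G). By day 5 it was higher in NaJa-D (0.32 ± 0.06) and NaJa-G (0.75 ± 0.07). Between the days the response of Tnc turned in NaJa-G from a fall, 327, 315 and 308 CPM to 178, 176 and 169 CPM, to a rise, 219 and 219 CPM to 367, 378 and 356 CPM.

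Thbs2 and Postn were low genes. Thbs2 fell in NaJa-F at day 5 by 2.56 ± 0.29, from 1.54, 1.31 and 1.69 CPM to 0.238 and 0.260 CPM, and rose by 0.40 ± 0.11 in NaJa-G at day 1. Postn (periostin) rose in NaJa-G at day 5 by 2.52 ± 0.32 and in NaJa-D on both days at levels under 0.7 CPM. Its NaJa-D day 1 value was 1.94 (adjusted p = 0.0194) without NaJa-D DMSO day 1 replicate 1.

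**Figure D3:**
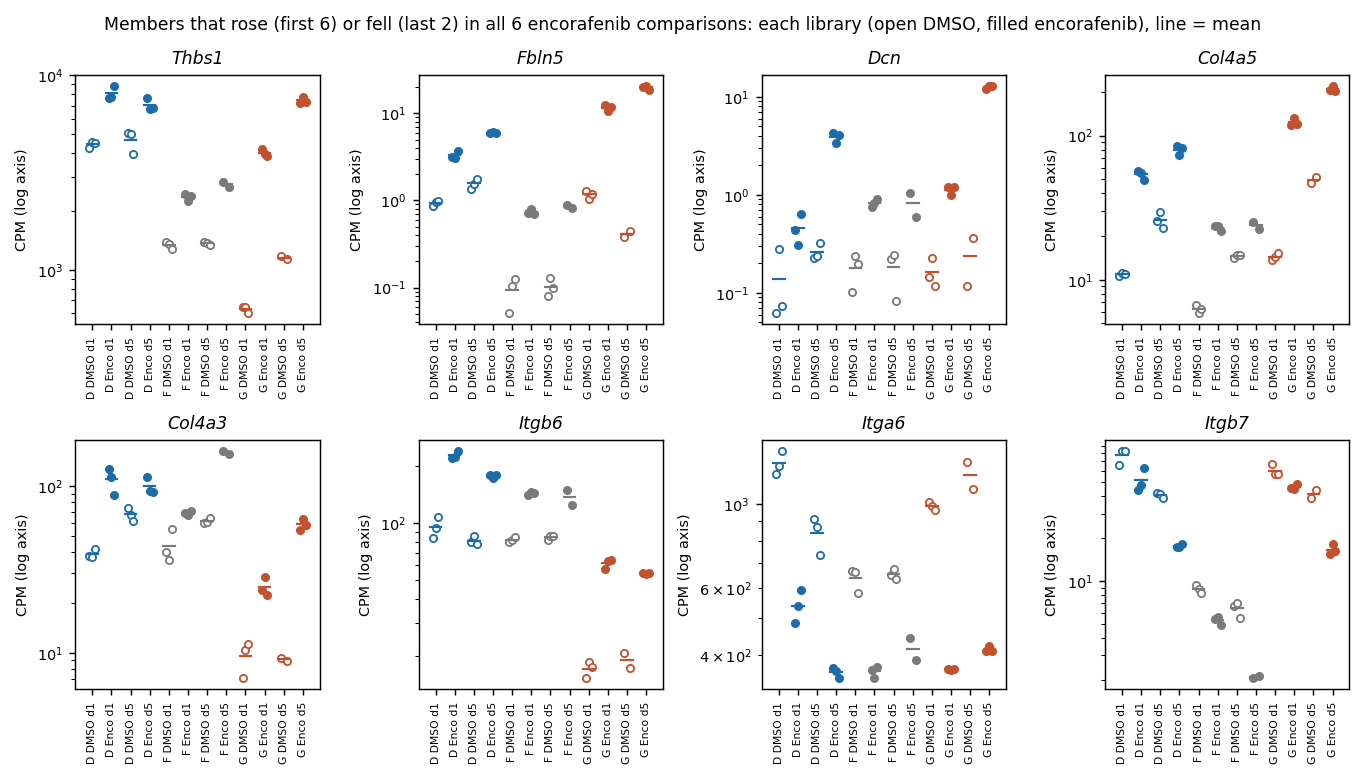
CPM on a log axis of every library of Thbs1, Fbln5, Dcn, Col4a5, Col4a3 and Itgb6, which rose in all 6 comparisons, and of Itga6 and Itgb7, which fell in all 6, by line, treatment and day with group means. In each panel the encorafenib libraries do not overlap the DMSO libraries of the same line and day.

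Integrins. Itga6, Itgb6 and Itgb7 moved in every line. More subunits were called in NaJa-G than in NaJa-F, as were more of all genes. At day 1, 35.3% of all genes rose and 28.7% fell in NaJa-G, against 17.5% and 12% in NaJa-F. At day 5 these shares were 28.5% and 24.7%, against 9.7% and 8.5%. Of 10 alpha subunits, 1 rose and 3 fell in NaJa-D at day 1 and 0 rose and 1 fell at day 5. NaJa-F had 0 and 1, then 1 and 1, and NaJa-G had 5 and 2 on each day. Of 8 beta subunits, 4 rose and 3 fell, then 4 and 2 in NaJa-D, 4 and 1, then 2 and 1 in NaJa-F, and 5 and 1, then 5 and 2 in NaJa-G.

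Itga6 (ENSMUSG00000027111, chr2:71745616-71858416), the laminin receptor subunit that pairs with beta4 in hemidesmosomes and with beta1 elsewhere, fell in 6 of 6. NaJa-G went from 1014, 988 and 965 CPM to 367, 365 and 366 CPM at day 1 (-1.43 ± 0.08, adjusted p = 6.89e-16) and from 1290 and 1093 CPM to 408, 422 and 409 CPM at day 5 (-1.52 ± 0.09). NaJa-D went from 1201, 1257 and 1377 CPM to 484, 538 and 592 CPM at day 1 (-1.25 ± 0.08) and fell by 1.22 ± 0.07 at day 5. NaJa-F fell by 0.82 ± 0.07 and 0.66 ± 0.08. Its partner Itgb4 fell less, by 0.34 ± 0.09 and 0.30 ± 0.08 in NaJa-D and by 0.54 ± 0.09 in NaJa-G at day 5, with no call in NaJa-F or in NaJa-G at day 1. Per exonic kilobase, the ratio of Itgb4 to Itga6 went from 1.00 to 1.87 and from 1.01 to 1.91 in NaJa-D, 0.822 to 1.46 and 0.695 to 1.18 in NaJa-F, and 0.217 to 0.646 and 0.224 to 0.441 in NaJa-G.

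Itgb3, Itgb5, Itgb6 and Itgb8, which pair with alphav, each rose in at least 4 comparisons, while Itgb1, which pairs with many alpha subunits including alphav, rose in NaJa-G at day 5 and gave -0.21 (adjusted p = 0.00902) in NaJa-D at day 1, a call lost without NaJa-D DMSO day 1 replicate 3 (-0.18, adjusted p = 0.0526). Itgb6, an epithelial receptor for latent TGF-beta and fibronectin, went from 15.3, 18.6 and 17.4 CPM to 57.7, 63.4 and 64.2 CPM in NaJa-G at day 1 (1.86 ± 0.08) and rose by 1.53 ± 0.09 at day 5. It rose by 1.26 ± 0.07 and 1.13 ± 0.07 in NaJa-D and 0.81 ± 0.07 and 0.70 ± 0.08 in NaJa-F. Itgb5 rose in 4 comparisons, most in NaJa-G at day 1 (1.40 ± 0.09), and Itgb8 in 5, up to 2.24 ± 0.41 in NaJa-D at day 1 where it stayed under 0.6 CPM. Itgb3 rose by 1.84 ± 0.19 in NaJa-D at day 5, from 0.671, 0.691 and 0.570 CPM to 2.15, 2.58 and 2.18 CPM, and gave -0.30 ± 0.20 in NaJa-F at day 5. Itgav itself was called in NaJa-G only, at 0.34 ± 0.07 and 0.50 ± 0.08.

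Itgb7, known from lymphocyte homing to the gut, fell in 6 of 6. It went from 41.6, 41.4 and 38.6 CPM to 17.4, 17.4 and 18.4 CPM in NaJa-D at day 5 (-1.19 ± 0.11) and from 38.3 and 44.3 CPM to 15.5, 18.2 and 16.4 CPM in NaJa-G at day 5 (-1.31 ± 0.12). In NaJa-F, where it was at 5.50 to 9.35 CPM in DMSO, it fell by 0.73 ± 0.16 and 1.59 ± 0.26. Itga2, the alpha subunit of a collagen receptor with beta1, fell at day 1 in NaJa-G, from 12.7, 14.9 and 15.6 CPM to 4.01, 4.19 and 3.78 CPM (-1.83 ± 0.15), and in NaJa-D by 0.55 ± 0.15. Itgb1 and Itga5, the fibronectin receptor, rose in NaJa-G at day 5 by 0.57 ± 0.08 and 0.41 ± 0.07.

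The second question was how the lines differ in DMSO, taken over both days. Against NaJa-D, 17 of the 70 genes were higher and 33 lower in NaJa-F (all genes, 32.6% and 29%), and 31 were higher and 27 lower in NaJa-G (all genes, 33.3% and 34.1%). Against NaJa-F, 38 were higher and 19 lower in NaJa-G (all genes, 25.2% and 29.2%). The 3 comparisons share their DMSO libraries. Without the replicate whose line labels differ, the counts were 15 and 32 for NaJa-F and 31 and 25 for NaJa-G against NaJa-D.

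Fibrillar collagens were higher in NaJa-G. Of 9 collagens, 7 were higher in NaJa-G than NaJa-D and none was lower, while the 3 fibril-associated collagens were lower, and of the 4 elastic fibre genes 2 were higher and 2 lower. Col1a2 and Col5a3 exceeded 1 CPM in at least 2 libraries in NaJa-G only, and Col3a1, Col11a1 and Col27a1 in NaJa-F and NaJa-G only. Such genes have a row because of lines other than NaJa-D, so the absence of lower fibrillar collagens was partly set by that limit. Col1a2 was at 14.2 to 17.7 CPM at day 1 in NaJa-G and 0.117 to 0.218 CPM in NaJa-D, a log2 difference over both days of 5.55 ± 0.30, and Col1a1 gave 4.20 ± 0.17. Sparc was at 72.1 to 82.8 CPM in NaJa-G, 3.92 to 4.91 CPM in NaJa-F and 0.728 to 1.01 CPM in NaJa-D at day 1, so that the lines did not overlap. Over both days NaJa-G exceeded NaJa-D in Sparc by 6.28 ± 0.15 and NaJa-F by 3.68 ± 0.07 (log2). Fbln2 exceeded NaJa-D by 4.37 ± 0.06 and NaJa-F by 4.85 ± 0.06, and Tnc by 1.66 ± 0.05 and 3.37 ± 0.05. Col6a1 rose from NaJa-D over NaJa-F to NaJa-G, by 4.53 ± 0.27 and then 1.71 ± 0.08.

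NaJa-D had the higher Lama3 and agrin. Lama3 was lower by 1.70 ± 0.05 in NaJa-F and by 3.74 ± 0.06 in NaJa-G, with the levels of the 3 lines apart on each day. Agrn was lower by 0.91 ± 0.07 and 3.01 ± 0.07, and Itgb4 by 1.09 ± 0.06 and 2.13 ± 0.06. Of the 9 laminin chains, 6 were lower and 2 higher in each of NaJa-F and NaJa-G than in NaJa-D. Thbs1 and Fn1 followed the same order, lower by 1.74 ± 0.05 and 0.49 ± 0.05 in NaJa-F and by 2.41 ± 0.05 and 1.31 ± 0.06 in NaJa-G. Some integrins marked NaJa-F: Itga2 was at 74.4 to 90.1 CPM in its DMSO libraries and 7.47 to 18.6 CPM in those of the other lines, and Itgb7 at 5.50 to 9.35 CPM against 38.3 to 82.6 CPM. Itgb6 of NaJa-G was below that of NaJa-D by 2.29 ± 0.06 and did not pass between NaJa-F and NaJa-D (-0.07 ± 0.05).

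**Figure D4:**
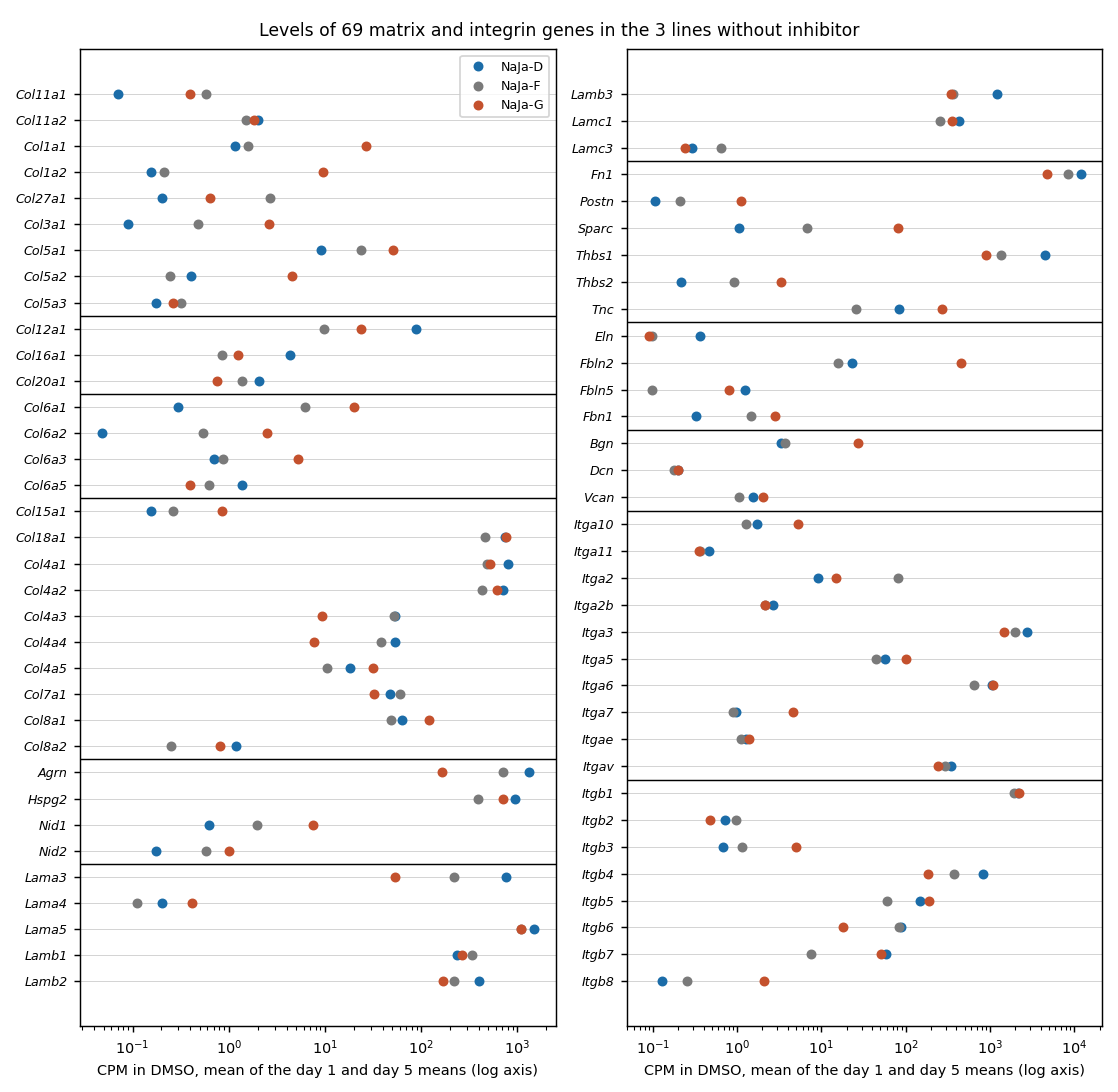
CPM in DMSO, as the mean of the day 1 and day 5 means, for 69 of the 70 genes and each line, on a log axis, grouped by role. NaJa-G points lie mostly to the right of NaJa-D for fibrillar collagens (7 of 9 higher by the test) and to the left for laminins (6 of 9 lower).

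By length, the most abundant genes of the group in NaJa-D at day 1 in DMSO were Fn1 with 1199 CPM per exonic kilobase, Thbs1 with 729, Itgb1 with 635 and Itga3 with 568. In NaJa-G at day 1 Itgb1 led with 568, followed by Fn1 with 374 and Itga3 with 290 CPM per exonic kilobase. In NaJa-G with encorafenib at day 5 the order was Thbs1 with 1227, Fn1 with 1053 and Itgb1 with 744. These are orders of group means, and neighbours were not tested.

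The third question was what changed between day 1 and day 5 in DMSO alone. In NaJa-D 7 genes were higher and 16 lower at day 5 (all genes, 13.7% and 15.3%), in NaJa-F 10 and 9 (all genes, 9.73% and 7.01%) and in NaJa-G 15 and 21 (all genes, 17.2% and 16.8%). Scaling by library size alone gave 17 and 14, 13 and 8, and 21 and 21, and shifted the all-gene median of NaJa-D from 0.01 to 0.18. Without the replicate whose line labels differ, NaJa-D had 5 and 16. Col4a5 rose in all lines, by 1.23 ± 0.09, 1.22 ± 0.10 and 1.78 ± 0.08. Lama3, Lamb1 and Fbln2 fell in all 3 lines, although in NaJa-G the call of Lamb1 was lost without DMSO day 5 replicate 3 (-0.33, adjusted p = 0.0102) and that of Fbln2 without replicate 1 (-0.32, adjusted p = 0.0167). Lama3 fell by 1.29 ± 0.08 (NaJa-D), 0.46 ± 0.07 (NaJa-F) and 0.82 ± 0.08 (NaJa-G).

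In NaJa-G, Col1a1, Col1a2, Col3a1, Col5a2, Fbn1 and Nid1 fell in DMSO and were high with encorafenib on both days. Of the 4 basement membrane linkers, 1 fell (Nid1) and 1 rose. Col1a1 was at 50.9, 40.1 and 35.3 CPM in DMSO at day 1 and 9.92 and 12.1 CPM at day 5, against 64.0, 73.2 and 72.6 CPM and 66.2, 78.4 and 68.7 CPM with the drug. Nid1 was at 12.8, 11.5 and 13.7 CPM and then 2.32 and 2.27 CPM in DMSO, against 12.9, 16.3 and 16.1 CPM and 18.9, 18.7 and 17.8 CPM. The day 5 DMSO libraries stand alone as the low group. From day 1 to day 5 in DMSO, the log2 difference was -1.92 ± 0.12 for Col1a1, -2.16 ± 0.16 for Col1a2, -1.88 ± 0.20 for Col3a1, -2.64 ± 0.20 for Col5a2, -2.45 ± 0.15 for Nid1 and -1.68 ± 0.20 for Fbn1. This comparison and the NaJa-G day 5 drug comparison share the same 2 DMSO libraries, so they are not independent. Sparc gave 0.19 ± 0.08 with no call, and Fbln2 fell by 0.39 ± 0.08.

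Some mesenchymal markers moved with these genes in NaJa-G and others did not. Of the fibroblast markers, Pdgfra and Pdgfrb lay outside the genes described here, Dcn and Col1a1 are among them, and Lum, Dpt, Pi16 and Thy1 had no row. The summed fibroblast level, most of which was Col1a1, was 39.9 to 55.7 CPM in DMSO at day 1, 15.9 to 18 CPM in DMSO at day 5, and 72.1 to 81.3 CPM and 86.9 to 100.2 CPM with encorafenib at days 1 and 5, so it largely repeats the change of Col1a1. It was 2.26 to 8.46 CPM in NaJa-D and 4.44 to 7.56 CPM in NaJa-F. Pdgfrb alone was at 1.53 to 1.78 CPM and then 0.416 to 0.535 CPM in DMSO, and at 1.81 to 2.49 CPM and 2.55 to 2.99 CPM with the drug. Pdgfra went the other way in DMSO, with a log2 difference of 0.82 between the days.

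Of the 8 genes of the mesenchymal list, Acta2 and Tagln, which encode smooth muscle actin and transgelin, gave log2 differences of -2.96 and -1.45 from day 1 to day 5 in DMSO. With encorafenib in NaJa-G at day 5 they gave 5.29 and 2.15. Vim gave -0.16 between the days in DMSO and -0.25 with encorafenib at day 5, Zeb1 0.34 and 0.89, Cdh2 0.24 and 0.58, and Twist1 0.36 and -0.87. Snai2 gave -0.37 and 1.92, and Zeb2 0.28 and 0.45. The summed level of that list in NaJa-G was 2464 to 2738 CPM in DMSO at day 5 and 2525 to 2585 CPM with encorafenib. The part of these markers in the result was not tested.

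**Figure D5:**
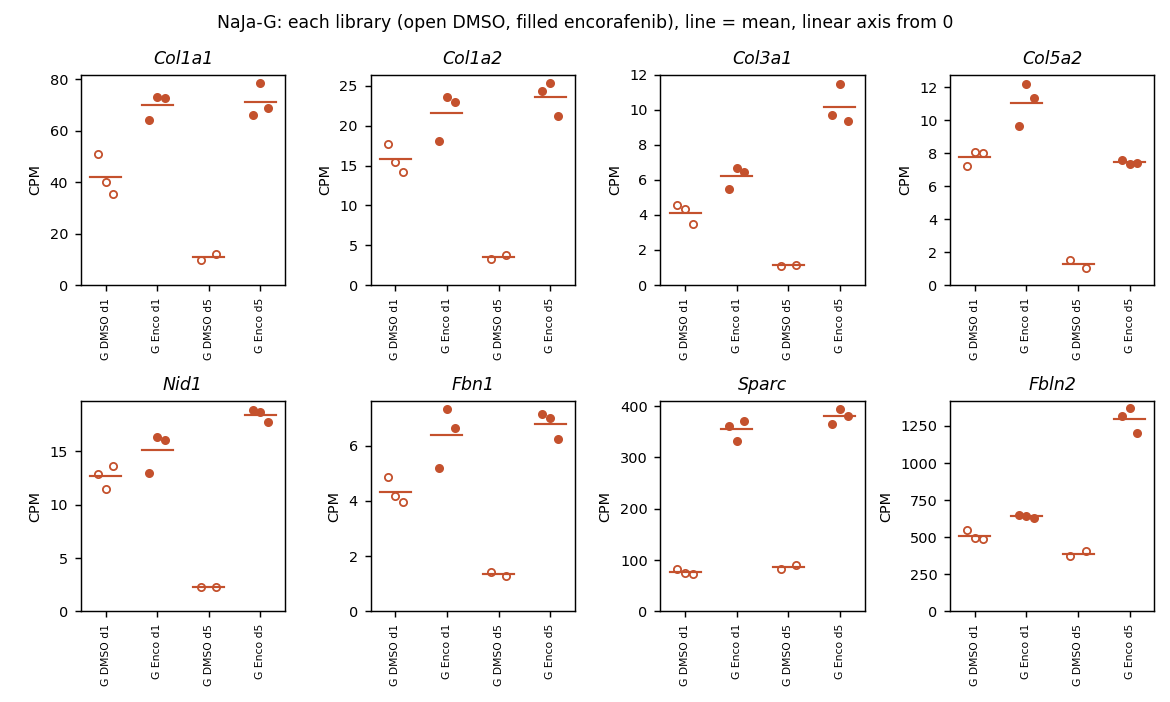
CPM on linear axes from 0 of every NaJa-G library for Col1a1, Col1a2, Col3a1, Col5a2, Nid1, Fbn1, Sparc and Fbln2, by treatment and day, with group means. For Col1a1, Col1a2, Col3a1, Col5a2, Nid1 and Fbn1 the 2 DMSO day 5 libraries sit below all others, Col1a1 at 9.92 and 12.1 CPM, while Sparc in DMSO stays at 72.1 to 90.5 CPM.

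The fourth question was whether responses to encorafenib differed between lines and between days, tested as differences of log2 fold changes. At day 1, the NaJa-F and NaJa-D responses of 17 of the 70 genes differed (all genes, 8.79%), those of NaJa-G and NaJa-D for 35 (all genes, 36.4%) and those of NaJa-G and NaJa-F for 34 (all genes, 33.5%). At day 5 these counts were 17 (all genes, 8.85%), 44 (all genes, 21.9%) and 44 (all genes, 24.2%). For NaJa-G at day 1 the shares of the group, 35 and 34 of 70, stood closer to those of all genes than at day 5. Without the replicate whose line labels differ, the day 1 counts against NaJa-D were 13 and 32. Between days, 13 genes differed in NaJa-D (all genes, 7.29%; 10 without that replicate), 11 in NaJa-F (all genes, 5.88%) and 44 in NaJa-G (all genes, 31.7%). The comparisons share libraries, so their counts are not independent.

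The Thbs1 response of NaJa-G exceeded that of NaJa-D by 1.79 ± 0.10 at day 1 (adjusted p = 5.65e-14) and 2.08 ± 0.11 at day 5. Col12a1 did so by 2.64 ± 0.15 and 3.35 ± 0.15, and Fbln5 by 1.5 ± 0.20 and 3.6 ± 0.24. The fall of Lamb1 was deeper in NaJa-G at day 1 than that of NaJa-D, by 1.33 ± 0.10 and did not differ by the test at day 5 (-0.18 ± 0.10, adjusted p = 0.19). Several genes were called in opposite directions in 2 lines with a called difference. Against NaJa-D, these included Col6a3, Fbln2, Lama3, Lama4 and Lamc1 at day 1 and Bgn, Col8a1, Lama3 and Lamc1 at day 5, all higher in NaJa-G and lower in NaJa-D, and Col7a1 at day 1 with the reverse. Fbln2 at day 1 was also higher in NaJa-G and lower in NaJa-F. Lama4, chosen after its values were seen, was at or below 1.98 CPM in every library.

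In NaJa-F the response of Sparc and Col6a1 was smaller at day 5 than at day 1, by 1.49 and 1.97 ± 0.19 on the log2 scale. Col4a4 in NaJa-F went the other way, with a larger response at day 5 by 0.67 ± 0.13. In NaJa-G the response of Nid1 was larger at day 5 by 2.74 ± 0.16, Col1a1 by 1.94 ± 0.15 and Fbln5 by 2.25 ± 0.24, and Itga10 turned from a rise at day 1 (1.00 ± 0.19) to a fall at day 5 (-1.86 ± 0.22). The values of Nid1 and Col1a1 include their falls in DMSO between the days, -2.45 and -1.92, which rest on 2 DMSO day 5 libraries.

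Genes that process the matrix or transmit its signals were counted from lists of pathway genes outside the group, and their counts stand against the shares of all genes given above for each comparison. Of 27 genes for collagen maturation and crosslinking, 22 rose and 2 fell in NaJa-G at day 5 with a median of 0.81, and 13 and 3 at day 1 with a median of 0.19. All genes rose and fell at 28.5% and 24.7% in that comparison and at 35.3% and 28.7% at day 1. In NaJa-D 5 rose and 8 fell at day 1 (all genes, 23.7% and 21.2%), then 7 and 4 (18.3% and 14.7%). In NaJa-F the counts were 3 and 3 (17.5% and 12%), then 5 and 4 (9.7% and 8.5%). Loxl2, a crosslinking oxidase, rose by 0.92 and 3.88 in NaJa-G at days 1 and 5, and Lox by 1.91 at day 5. Serpinh1, the collagen chaperone HSP47, rose by 2.23 in NaJa-G and 2.57 in NaJa-F at day 5. Pcolce, which enhances procollagen cleavage, rose in 5 comparisons (0.57 to 1.40) and fell in NaJa-F at day 5 by 0.61.

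Of 22 genes of the adhesion complex that couples integrins to actin, 15 rose and 4 fell in NaJa-G at day 1 (all genes, 35.3% and 28.7%). At day 5 there, 16 rose and 3 fell (28.5% and 24.7%). NaJa-D had 11 and 3 (23.7% and 21.2%), then 8 and 2 (18.3% and 14.7%). NaJa-F had 11 and 2 (17.5% and 12%), then 2 and 2 (9.7% and 8.5%). Tns1 (tensin-1) rose in 5 of 6, by up to 1.45 in NaJa-G at day 1, and Fermt2 (kindlin-2) rose in NaJa-G by 1.29 and 1.34. Of 9 matrix receptors other than integrins, 8 rose in NaJa-G on each day. Ddr2, a tyrosine kinase receptor for fibrillar collagen, rose there by 0.92 and 3.17. Cd44, the hyaluronan receptor, fell in 4 comparisons, by 0.30 and 0.22 in NaJa-D and, at day 1, by 0.21 in NaJa-F and 0.40 in NaJa-G. These pathway genes were picked as examples after their values were seen.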

How the data were processed

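RNA-seq of 34 libraries of NaJa-D, NaJa-F and NaJa-G cells was analysed from raw counts per gene as deposited by the authors, 14107 genes in all. Per the study's methods and the submitters' processing notes, reads were trimmed with Trimmomatic 0.39 and aligned to GRCm38/mm10 with STAR 2.5.2b. The counting tool, its annotation and strand use are not given in the sources used here, so reads of overlapping genes cannot be told apart, which touches Col4a1 with Col4a2, Col5a1, Col20a1, Nid2 and Tnc. Samples were grouped by line, treatment and day from the labels. Genes with a row sum above 2 were kept, TMM factors and 12 group means were fitted with limma 3.58.1 (edgeR 4.0.16, R 4.3.3), and adjusted p below 0.01 was called, as in the study. The voom weighting was chosen here. CPM values use TMM library sizes. The 21 comparisons were fitted over all genes, and scripts were tested on simulated data. No pair of replicates agreed within counting noise (chi-square per degree of freedom 3.32 to 86.6). Totals of 46007050 to 80121299 counts limit precision mostly for genes below 1 CPM.

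The genes, lists and tests were chosen with earlier results of these data known. Genes named were the partner chains and single matrix genes, plus the 3 highest and 3 lowest called genes per comparison (2 and 2 for response differences) with mean log2 CPM of at least 0 and, outside response differences, no overlap of libraries. Gene coordinates and exonic lengths came from GENCODE M21 and sequences from RefSeq promoters of GRCm38.p6, where 50 of 70 genes had an entry. Alternatives were edgeR's quasi-likelihood test, DESeq2 1.42.0, other scalings and filters, a block for replicate number, only the groups compared, a fold threshold and leaving out single libraries. Further replicates of the 2 groups with 2 libraries were not used here. Results for 1 of the 70 genes are counted in totals and otherwise not reported here.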

Additional observations from a re-analysis of the deposited data

Results flagged for a closer look

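These results were picked out because the response to encorafenib differed between lines or days by a test of the difference itself (limma, adjusted p below 0.01). Values are differences of log2 fold changes, for the 2 highest and 2 lowest genes of each comparison. For NaJa-F minus NaJa-D, Col12a1 gave 1.39, Lama3 0.84, Col7a1 -1.35 and Vcan -1.28 at day 1, and Col12a1 1.2, Col4a3 0.80, Itgb3 -2.15 and Sparc -1.66 at day 5. For NaJa-G minus NaJa-D, Col12a1 gave 2.64, Col6a3 2.34, Col7a1 -1.51 and Lamb1 -1.33 at day 1, and Fbln5 3.6, Col12a1 3.35, Itga10 -1.63 and Itgb3 -0.83 at day 5. For NaJa-G minus NaJa-F, Thbs1 gave 1.84, Itga10 1.72, Lamb1 -1.77 and Itga2 -1.72 at day 1, and Fbln5 2.56, Col5a1 2.33, Itga10 -2.20 and Itga6 -0.87 at day 5.

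For day 5 minus day 1, NaJa-D gave 1.11 for Itgb3, 0.62 for Lamb1, -0.91 for Col4a3 and -0.79 for Col8a1. NaJa-F gave 1.05 for Tnc, 0.67 for Col4a4, -1.97 for Col6a1 and -1.49 for Sparc. NaJa-G gave 2.74 for Nid1, 2.25 for Fbln5, -2.86 for Itga10 and -1.12 for Itgb5. The Nid1 value includes its fall in DMSO between the days, -2.45.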

How the results depend on the processing

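Of 183 recomputed counts of called genes, 172 stayed within 1.5 times the reported count, and no count moved further under the replicate block, edgeR, the other scalings or the filters. The replicate block gave 45 calls in NaJa-D at day 1, as reported, and 58 in NaJa-G at day 5 (59 reported), and lost 5 of 383 named calls. Replicate numbers did not pair the libraries (pair correlations -0.27 to 0.21). Fitting only the groups compared gave 21 calls in NaJa-D at day 1 (45 reported), 22 for NaJa-G between days in DMSO (36), 5 for NaJa-F minus NaJa-D at day 1 (17) and 3 for NaJa-D between days (13), with fewer libraries to estimate the spread. DESeq2 gave 26 for NaJa-F minus NaJa-D at day 1. With a log2 fold change of at least 1 also required, encorafenib calls numbered 24 and 20 (NaJa-D), 11 and 11 (NaJa-F) and 30 (NaJa-G, day 1), and 29 for NaJa-F against NaJa-D in DMSO.

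Leaving out single libraries gave, at days 1 and 5, 35 to 45 and 28 to 32 encorafenib calls (NaJa-D), 27 to 29 and 17 to 19 (NaJa-F), and 50 to 54 and 52 to 59 (NaJa-G). The response differences ranged from 11 to 27 for NaJa-F minus NaJa-D at day 1, from 9 (without NaJa-F encorafenib day 5 replicate 1) to 17 at day 5, and from 8 to 17 for NaJa-D between days. The 27, and the 17 between days, came without NaJa-D encorafenib day 1 replicate 3. That library stood apart from its group, with chi-square per degree of freedom of 86.6 and 67.9 against the others and 11.1 between those. NaJa-G DMSO day 1 replicate 1 also did, with 48.3 and 46.7, and 3.67 between the others. The 2 NaJa-G DMSO day 5 libraries gave 69.1 against each other and the 2 NaJa-F encorafenib day 5 libraries 46.5. Of 383 named calls, 53 were lost in at least 1 removal and none reversed. The genes called in all 6 comparisons were the same under edgeR, DESeq2, median ratio scaling, both filters and the replicate block. Library size scaling added Lamb1 as lower, and fitting only the groups compared kept 7 higher genes, losing Col5a2, Dcn and Lamb2, and called Itga6 and Lamb1 lower.

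Some line differences changed sign when 1 day was used, and the cause was not tested. NaJa-G minus NaJa-D became 0.0472 for Col4a2 (-0.21 reported) and 0.15 for Lamc1 (-0.33) at day 5 alone, and -0.0743 for Lamb1 (0.24), -0.0289 for Itgb5 (0.28) and 0.31 for Fbln5 (-0.79) at day 1 alone. NaJa-G minus NaJa-F became -0.0732 for Nid1 (1.5) at day 5 alone. Depth limits genes below 1 CPM, such as Col1a2 and Postn in NaJa-D and NaJa-F.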
